A study of Mus musculus with 3 samples.

Results

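The genes described are Zp2 (ENSMUSG00000030911.7) and Zp3 (ENSMUSG00000004948.12), which encode zona pellucida proteins. They were chosen by name, as 2 of the 55450 genes in the GENCODE M21 annotation. They were measured in ovulated oocytes of 3 litters, with 1 RNA library per litter, and no other group was analysed here. The females that gave the oocytes were superovulated, were of mixed strain background and were homozygous for the floxed LSD1 allele (LSD1 FL/FL, LSD1 being the histone demethylase encoded by Kdm1a). They were negative for the ZP3::Cre transgene, so the floxed allele is shared by all samples and no Cre was present. The transgene takes its promoter from the Zp3 gene, which is described here in its endogenous form. Oocytes were collected by embryonic day 0.5 and lysed, and total RNA was amplified by SPIA, a linear isothermal method, with the Nugen Ovation RNA-Seq kit before library construction. The number of females or oocytes per litter is not given in the sources used here, and fewer cells and less RNA per cell cannot be told apart in such bulk libraries.

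The zona pellucida is the glycoprotein coat that surrounds the mammalian egg. In the mouse it is built from ZP1, ZP2 and ZP3, which growing oocytes synthesise and secrete. Filaments of ZP2 and ZP3 are joined by ZP1. Sperm bind to the coat before fertilisation, and afterwards the cortical granule protease ovastacin cleaves ZP2, which prevents further binding. Zp genes are transcribed during oocyte growth under factors that include FIGLA, and ovulated eggs carry mRNA left from that phase.

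Zp3 was found on chromosome 5 and Zp2 on chromosome 7 of mm9, the build of the tracks. The exon lengths and spacings of transcripts Zp3-201 and Zp2-201 were slid along their whole chromosome, and the place was taken where the exons fitted the coverage best. Zp3 fell at chr5:136455967-136464492, on the plus strand, with Pearson's r of 0.89 across bases between the exon pattern and log2(depth + 1) of the pooled libraries. The best place over 1000 bases away reached 0.61, and the mirror image of the gene 0.58. Zp2 fell at chr7:127275856-127288806, on the minus strand, with r of 0.83 against 0.41 elsewhere and 0.44 for the mirror image. Bases share reads and depth with their neighbours, so these r values describe the match and are not tests. At 10 places for Zp3 and 11 for Zp2, all adjoining, r lay within 0.01 of the best, so exon borders are known to within a few bases. All 7 exons of Zp3 and all 9 exons of Zp2 of at least 100 bases held alignments. None of the 48 runs of 3 start positions with at least 50 alignments in Zp3, and none of the 111 in Zp2, had its counts and spacing repeated elsewhere in the genome. Deep parts of both genes thus showed no copy of their alignments at another place. Such a copy can show only if reads were reported at more than 1 place, and whether they were is not stated.

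Levels are given as RPKM, the alignments lying wholly inside exons per kilobase of possible start positions, divided by the library's total in units of 1000000 alignments. An alignment is 72 bases long and has no gap, so it cannot cross a splice junction, and an exon of 72 bases offers 1 start position. Zp3, with 8 exons and 1323 exon bases, offers 755 such positions. Zp2, with 18 exons and 2221 exon bases, offers 969. The libraries held 35183199, 31787887 and 32028802 alignments in litters 1, 2 and 3, and 85.2% to 85.6% of alignments repeated a start position already seen in the same library.

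Zp2 was the more abundant of the pair and nearly the same in the 3 litters. Exon levels of litters 1, 2 and 3 were 67.4 RPKM (64.7 to 70.2, exact 95% Poisson limits), 63.1 (60.4 to 66.0) and 62.4 (59.7 to 65.3). The mean was 64.3 ± 2.70 RPKM (SD, n = 3), from 2299, 1945 and 1938 alignments inside exons. The intervals of neighbouring litters overlap, and the highest litter was 1.08 times the lowest. Such intervals cover counting error only, since amplified copies are not independent molecules. Without the last exon, an alternative chosen after the values were seen, Zp2 stood at 42.8, 43.1 and 52.7 RPKM, with litter 3 the highest. Over all 9 ways of computing the level, the highest litter of Zp2 was 1.07 to 1.28 times the lowest.

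Zp3 was lower and less even. Litters 1, 2 and 3 stood at 51.4 RPKM (48.7 to 54.2, exact 95% Poisson limits), 43.9 (41.3 to 46.6) and 21.5 (19.7 to 23.5), from 1365, 1053 and 521 alignments. The mean was 38.9 ± 15.5 RPKM (SD, n = 3). Litter 3 lay below the others by more than counting error, and the highest litter was 2.39 times the lowest. Without the last exon, an alternative chosen after the values were seen, the levels were 31.7, 32.8 and 22.1 RPKM and the highest was 1.48 times the lowest, so the size of the difference rests largely on 1 exon.

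Of the pair, 1 gene thus differed over 2-fold between litters. This call was lost when each start was counted a single time (1.74-fold) as well as without the last exon. Among all 1 kb windows whose mean reached 10 CPM (alignments per 1000000 of the library), 54.5% differed over 2-fold, or 5943 of 10913. Differences over 2-fold between litters were thus common among windows. A window is not a whole gene, so this share and the exon levels are not in like units. The median window was 2.12 times as high in its highest as in its lowest litter, and litter 3 was the lowest in 40.4% of windows. Without litter 3, 942 of 10515 windows differed over 2-fold, or 8.96%. Zp3 without litter 3 stood at 47.6 RPKM and Zp2 at 65.3. With 1 library per litter, a difference between litters cannot be told apart from a difference between library preparations or lanes.

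**Figure D1:**
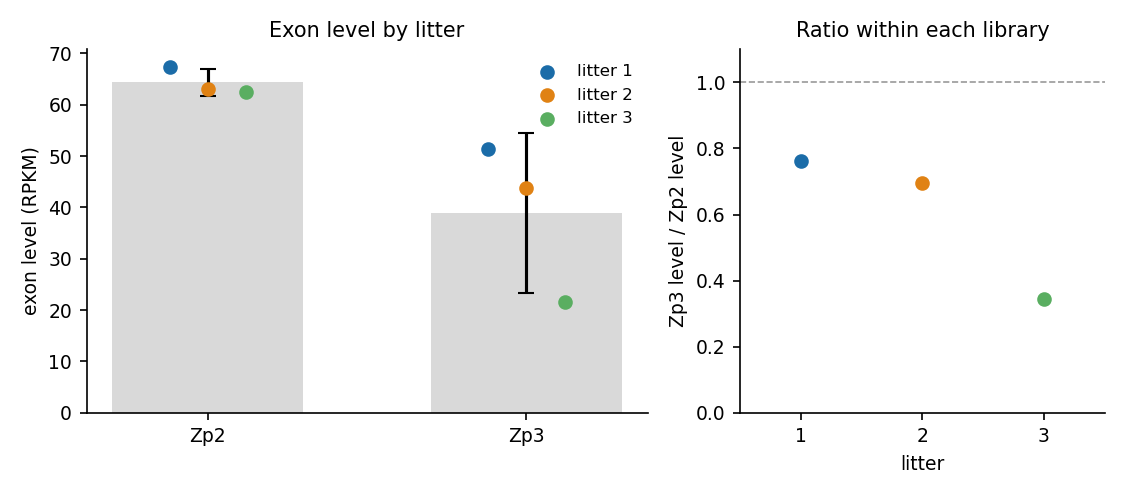
Left, exon levels of Zp2 and Zp3 in RPKM, with points for the litters, bars for the means and error bars for the SD (n = 3). Right, the Zp3 level divided by the Zp2 level in each library, with a dashed line at equal levels. The Zp2 points lie between 62.4 and 67.4 RPKM, the Zp3 points between 21.5 and 51.4, and all 3 ratios are below the line.

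The ratio of the genes within a library does not depend on how libraries are scaled. The Zp3 level was 0.762, 0.695 and 0.345 times the Zp2 level in litters 1, 2 and 3 (0.601 ± 0.224, SD, n = 3). Zp2 was the higher in 3 of 3 litters, and it stayed so in every litter under all 9 ways of computing the levels. Those ways that only rescale a library change both genes alike and cannot alter this order. With mean depth over all exon bases in place of alignments inside exons, which includes the bases near junctions that gapless alignments miss, the ratio was 0.992, 0.924 and 0.453, so in litter 1 the genes were nearly equal on that measure. The smallest two-sided p of an exact sign-flip test with 3 litters is 0.25, so no test of this difference was made.

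The highest 1 kb window of Zp2, on chromosome 7 (127275001 to 127276000), held 24.2 ± 6.79 CPM (SD, n = 3), and that of Zp3, on chromosome 5 (136464001 to 136465000), 12.8 ± 9.13 CPM. Both hold the 3′ end of the gene. In litters 1, 2 and 3 the Zp2 window held 29.99, 25.83 and 16.70 CPM and the Zp3 window 21.09, 14.35 and 3.03. Both genes were thus less even between litters in these windows than by exon level. The windows ranked 4898 and 8773 by mean CPM among 303433 windows with any alignment, so 1.61% and 2.89% of windows were higher.

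Most alignments of both genes lay in exons. Of the alignments that touch Zp3, 87.5% ± 1.48 (SD, n = 3) lay wholly inside an exon. Another 9.81% ± 0.936 reached past an exon edge by fewer than 10 bases. Alignments with at least 10 bases on each side of an edge numbered 3, 0 and 0 in litters 1, 2 and 3, and those in introns 36, 1 and 2. For Zp2 the share inside exons was 83.3% ± 4.09, with 9.16% ± 0.774 reaching past an edge by fewer than 10 bases. Zp2 had more of the other classes, with 12, 57 and 18 alignments across an edge and 201, 236 and 43 in introns.

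Mean depth in introns, at least 72 bases away from an exon, was low beside that in exons. In Zp3 it was 0.323, 0.0115 and 0.0190 alignments per base in litters 1, 2 and 3, against 82.6, 64.8 and 31.5 over exon bases. In Zp2 it was 0.125, 0.295 and 0.254, against 83.3, 70.1 and 69.6. Set against the depth expected inside exons away from junctions, the intron to exon ratio was 0.000992 ± 0.00130 (SD, n = 3) for Zp3 and 0.00151 ± 0.000688 for Zp2. Of the intron bases so defined, 2.10% ± 1.56 were covered in Zp3 and 5.93% ± 1.04 in Zp2. In Zp3, 31 of the 36 intron alignments of litter 1 lay in intron 1, and without litter 1 the ratio was 0.000248.

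One short intron of Zp2 departed from this. Intron 1, with 90 bases (127288637 to 127288726), is too short for the intron measure above. Its mean depth was 147 in litter 1 and 188 in litter 2, but 8.84 in litter 3. It held 183, 200 and 4 alignments with fewer than 10 bases in exons, which began at 31, 28 and 3 distinct positions. The exons on either side, which offer 9 and 18 possible starts, were nearly empty, with 2, 0 and 1 alignments inside exon 1 and 1, 0 and 3 inside exon 2. The annotated transcript Zp2-204, of the retained intron class, begins within this intron and keeps the rest of it. With all intron bases counted, the Zp2 intron to exon ratio was 0.00807 ± 0.00508 (SD, n = 3). Over the whole of Zp2, alignments with at least 10 bases on each side of an exon edge numbered 12, 57 and 18 in litters 1, 2 and 3. In litters 1 and 2 these were fewer than the 183 and 200 within intron 1. Which transcript the reads in intron 1 came from was not tested, and the alignments are gapless and without strand.

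**Figure D2:**
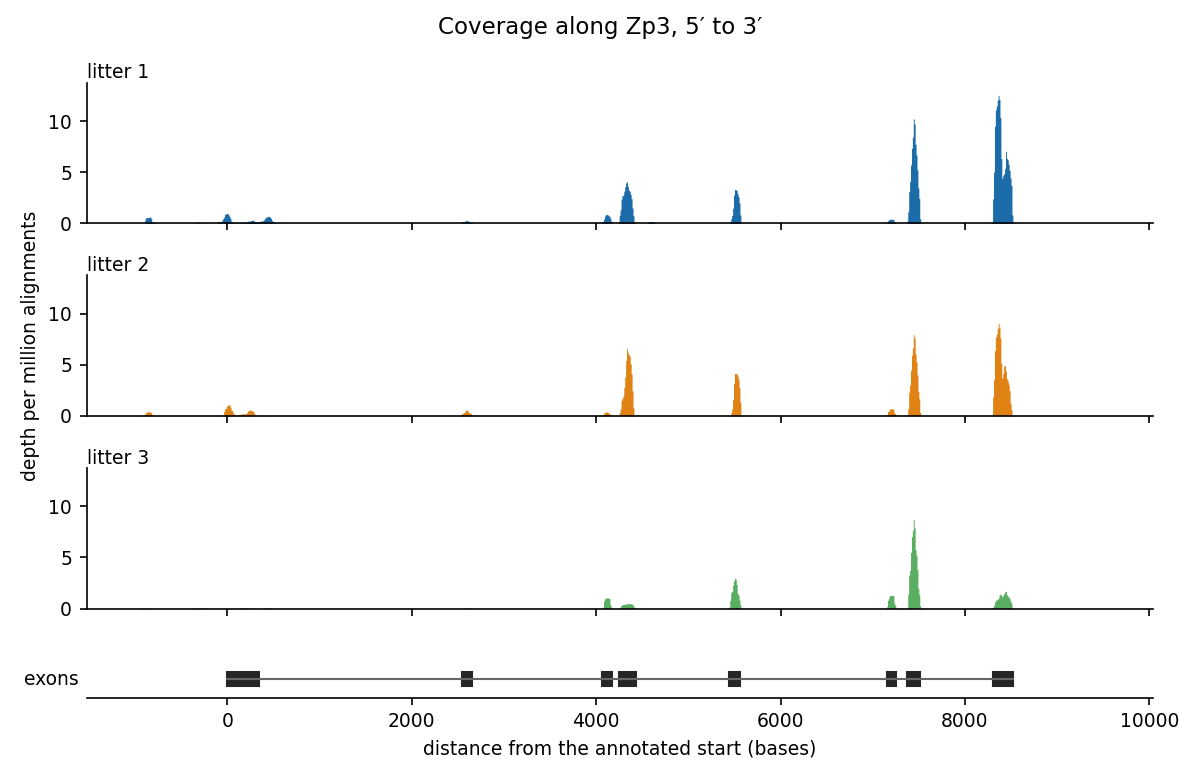
Depth per 1000000 alignments along Zp3 for litters 1 to 3, against the distance from the annotated start in bases, 5′ to 3′, in steps of 10 bases. Black boxes mark the exons. Coverage stands over exons and is highest over exons 7 and 8 in litters 1 and 2, and over exon 7 in litter 3. Over exon 8 it is lower in litter 3 than in the others.

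**Figure D3:**
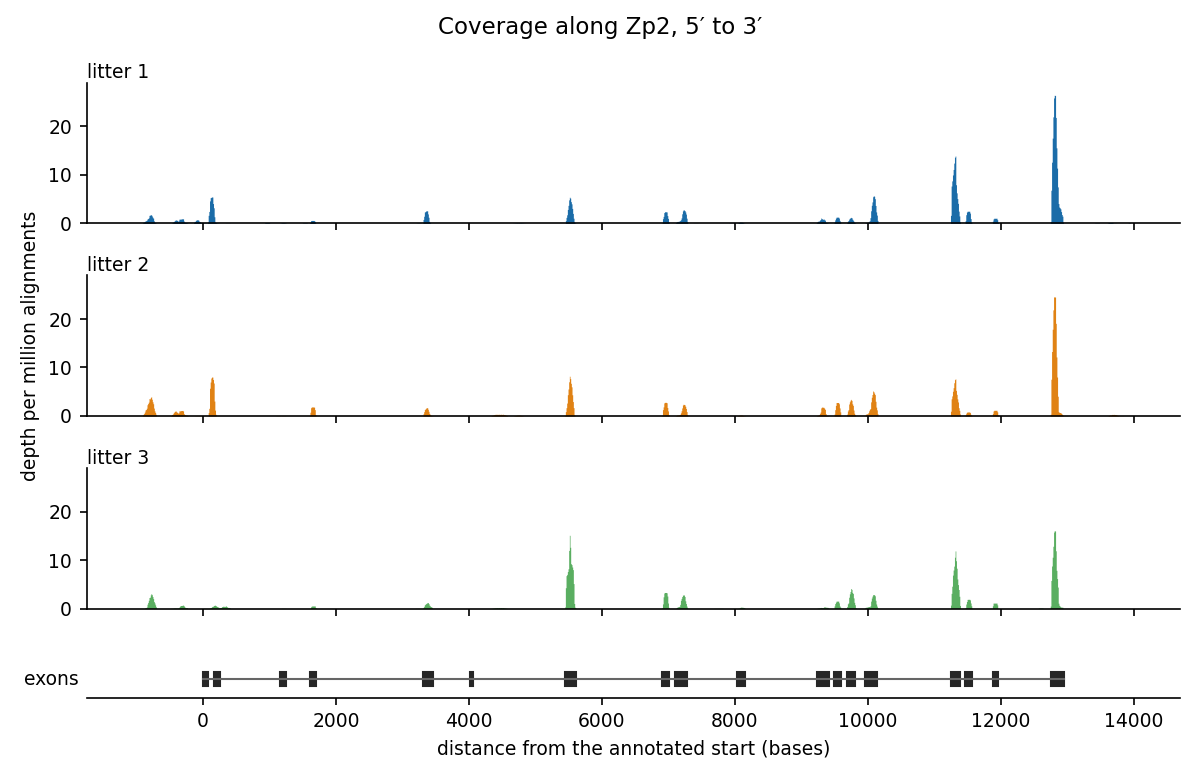
Depth per 1000000 alignments along Zp2 for litters 1 to 3, drawn as a map of the gene from its annotated start, 5′ to 3′, in steps of 10 bases. Black boxes mark the 18 exons; the peak near the start lies over intron 1 and is seen in litters 1 and 2, and the highest peak of litters 1, 2 and 3 lies over the last exon.

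Coverage of Zp3 was higher on the 3′ side of the transcript but did not rise up to its end. Exon 8, the last, stood below exon 7 in every litter, and in litter 3 at 19.5 against 120.2 RPKM. On the 5′ side of the transcript's midpoint the level was 10.7, 11.3 and 3.63 RPKM in litters 1, 2 and 3, and on the 3′ side 100.5, 83.2 and 43.2. The 3′ side was therefore 9.53 ± 2.29 times the 5′ side (SD, n = 3), higher in 3 of 3 litters. Exon 1 held 17, 34 and 3 alignments over 273 possible starts, and exon 2 held 6, 14 and 1 over 48. Their mean levels were 2.01 ± 1.80 and 4.46 ± 4.33 RPKM, far under those of exons 7 and 8. With the last exon left out the ratio was 16.3. That split uses the midpoint of the shortened transcript, so the value is not comparable with 9.53 and cannot show what the last exon contributes.

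In Zp2 the difference between the sides was smaller and varied between litters. The 3′ side was 3.09, 2.15 and 1.22 times the 5′ side in litters 1, 2 and 3 (2.15 ± 0.935, SD, n = 3). In litter 3 the 5′ side stood at 55.7 RPKM, against 31.2 and 38.5 in litters 1 and 2. Without the last exon, and with the midpoint moved likewise, the ratio was 1.39, 0.970 and 0.698 in litters 1, 2 and 3. Its mean was 1.02, and the direction then differed between litters. When each start was counted a single time, the mean ratio was 1.21.

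The exons of Zp3 fell into those that were alike in all litters and those that were not. Exon 7 stood at 139.5, 107.2 and 120.2 RPKM in litters 1, 2 and 3 (122.3 ± 16.2, SD, n = 3). Exon 5 stood at 50.8, 58.9 and 51.2 RPKM. Both were close in the 3 litters.

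The other well covered exons of Zp3 were lower in litter 3. Exon 8, the last, stood at 128.3, 87.2 and 19.5 RPKM and exon 4 at 51.3, 67.9 and 7.46. As a share of all alignments inside Zp3 exons, exon 8 held 50.9% (48.3 to 53.6, 95% Wilson limits), 40.6% (37.6 to 43.5) and 18.4% (15.3 to 22.0) for litters 1, 2 and 3. Exon 7 held 23.7% (21.6 to 26.1), 21.4% (19.0 to 23.9) and 48.8% (44.5 to 53.0). These limits cover counting error only, since amplified copies are not independent molecules. The alignments began at 124, 110 and 54 distinct positions in exon 8 and at 61, 56 and 58 in exon 7. Exons 3 and 6 were instead highest in litter 3, exon 3 with 25, 9 and 31 alignments over 33 possible starts and exon 6 with 10, 12 and 32 over 21. The lower level of litter 3 was thus not shared by all exons.

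Zp2 exons were also uneven. The highest mean was that of the last exon, 18, at 218.2, 186.0 and 121.9 RPKM in litters 1, 2 and 3, where litter 3 was again the lowest. Exon 15 followed with 185.8, 99.2 and 162.4 RPKM and exon 7 with 61.5, 92.0 and 174.6, where litter 3 was the highest. Exon 7 held 8.57%, 13.7% and 26.3% of the alignments inside Zp2 exons. These opposite differences left the level of the whole gene nearly equal in the 3 litters.

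Some Zp2 exons were nearly or wholly without alignments. Exon 3, with 84 bases and 13 possible starts, held 0 in every litter, where a count of 0 allows up to 6.56, 7.26 and 7.21 RPKM. Exon 10, with 127 bases and 56 possible starts, stood at 3.96 ± 1.11 RPKM (SD, n = 3), while its neighbour exon 9 stood at 24.3 ± 2.76. Exon 6, with 45 bases, is shorter than an alignment and cannot be measured.

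**Figure D4:**
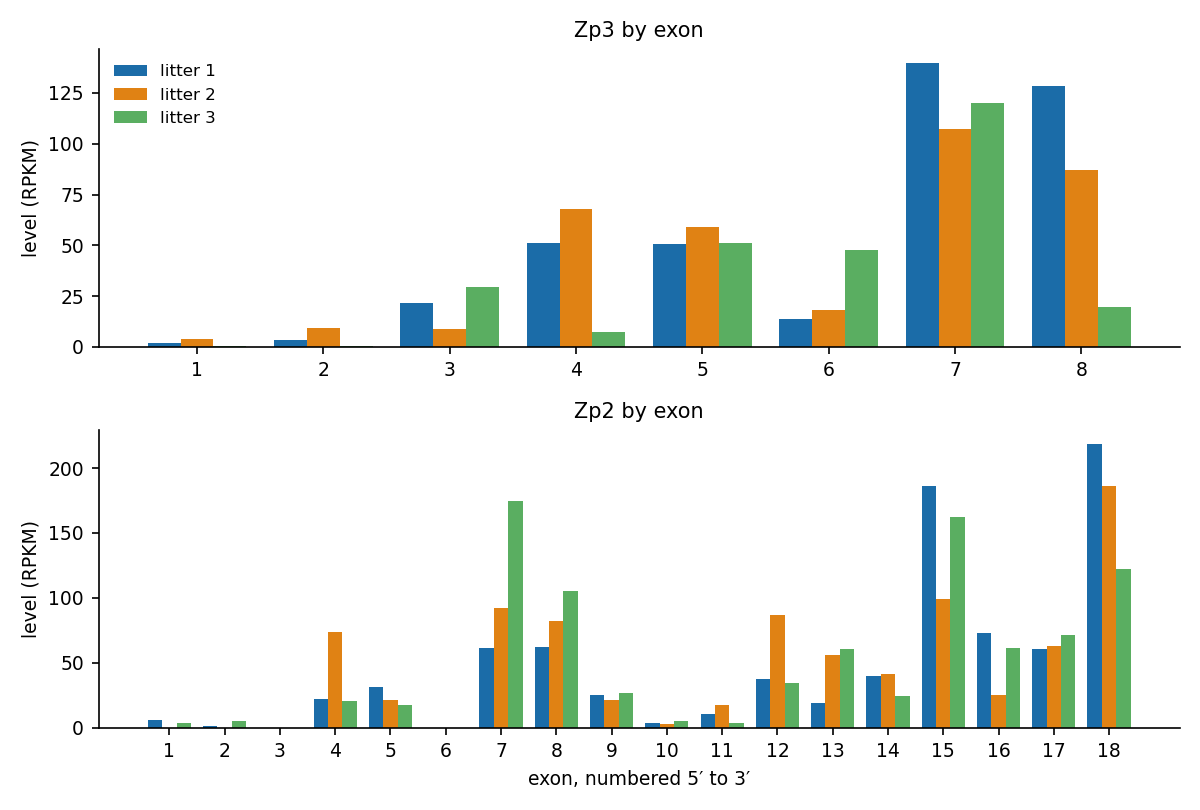
Level of each exon in RPKM for litters 1, 2 and 3, with exons numbered 5′ to 3′, Zp3 above and Zp2 below. In Zp3 exon 7 is alike in the 3 litters and exons 4 and 8 are low in litter 3; in Zp2 exon 7 is highest and exon 18 lowest in litter 3, and exon 6 offers no start position.

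The wholly coding exon with the highest mean level in each gene is shown to give the sequence on which these values rest, among exons with at least 30 possible starts. Both are read 5′ to 3′ on the transcript strand from GENCODE M21, on GRCm38, and hold no capitals since no part is singled out. Exon 7 of Zp3 is chr5:135987472-135987608 on the plus strand, 137 bases long, and exon 15 of Zp2 is chr7:120133908-120134043 on the minus strand, 136 bases long.
Zp3 exon 7: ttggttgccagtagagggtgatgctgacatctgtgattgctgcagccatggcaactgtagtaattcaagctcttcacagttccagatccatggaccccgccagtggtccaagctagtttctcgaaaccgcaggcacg
Zp2 exon 15: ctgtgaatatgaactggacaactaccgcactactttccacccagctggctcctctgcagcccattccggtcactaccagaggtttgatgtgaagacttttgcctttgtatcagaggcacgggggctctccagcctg
Their G and C contents were 52.6% and 53.7%. The nearly empty exon 1 of Zp3 had 59.9%, the empty exon 3 of Zp2 39.3%, and the last exon of Zp2, the highest of that gene, 41.1%.

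Start positions were used densely. In Zp3, 43.3%, 42.4% and 24.9% of the possible positions in litters 1, 2 and 3 held at least 1 alignment, with 4.17, 3.29 and 2.77 alignments per used position. In Zp2 the shares were 49.9%, 46.7% and 44.4%, with 4.52 ± 0.228 alignments per used position (SD, n = 3). In exon 7 of Zp3, 61, 56 and 58 of 66 possible positions were used, so counting each position once can hardly show a difference there. Counted so, Zp3 was at 85.6, 91.8 and 52.7 RPKM and Zp2 at 98.8, 101.3 and 93.8. Here the library total was also counted in distinct starts, 5057858, 4616518 and 4729335 in litters 1, 2 and 3. These levels are therefore on another scale than those from all alignments, and their height cannot be compared with them. Between the highest and lowest litter, Zp3 then differed 1.74-fold and Zp2 1.08-fold.

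The ends of the genes were examined because alignments reached past them. In the 244 bases before the annotated start of Zp3, 39, 32 and 0 alignments began in litters 1, 2 and 3, where a count of 0 allows up to 3. Most of them ran across the start into exon 1, and 38, 32 and 0 alignments crossed one end of the gene or the other. The sequence before the start is shown because these alignments begin in it. It is given from RefSeq on GRCm38.p6 (chr5:135979855-135980098, plus strand), up to the base before the GENCODE start, with matches to CANNTG, the E-box core bound by FIGLA with its partners, and to TATAA in capitals.
Zp3 promoter: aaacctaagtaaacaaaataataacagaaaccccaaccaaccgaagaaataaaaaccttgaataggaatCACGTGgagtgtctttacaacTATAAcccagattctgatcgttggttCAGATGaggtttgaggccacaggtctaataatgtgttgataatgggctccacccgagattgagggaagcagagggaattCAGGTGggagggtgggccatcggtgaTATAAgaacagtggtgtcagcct
CANNTG matched at 175, 128 and 49 bases before the start, the first of them as CACGTG, and TATAA at 154 and 23. Motifs were searched on both strands, and CACGTG is one form of CANNTG. Of 32851 RefSeq promoters cut to the same length, 65.6% hold CANNTG, 5.82% CACGTG and 22.5% TATAA. A match is a description of the letters and not a binding site.

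Upstream of Zp2 alignments were more frequent. In the 500 bases before its annotated start 88, 75 and 30 alignments began in litters 1, 2 and 3, and from 1000 to 501 bases before it 85, 182 and 117. The latter stretch was chosen after its coverage was seen. In the 5 kb before the start 363, 458 and 547 alignments did not touch the gene, against 59, 18 and 6 for Zp3, a count that leaves out those running into the gene. Downstream the counts were 18, 20 and 1 for Zp2 and 3, 10 and 3 for Zp3, counted in the same way, so few alignments lay wholly past either 3′ end.

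The annotation holds another coding transcript of Zp2, Zp2-205, whose last exon lies further downstream. That exon (placed from base 127270288 of chromosome 7) held 35, 65 and 5 alignments wholly inside it, against 1044, 804 and 531 in the last exon of Zp2-201. Most alignments at a 3′ end thus lay in the shorter gene model.

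Of the 11 other genes of the zona and fertilisation list, 4 could be placed by exon spacing, namely Zp1, Cd9, Nobox and Furin. Zp1, the protein that joins the filaments, was the highest of the 3 zona genes in every litter, at 131.7, 116.5 and 79.98 RPKM in litters 1, 2 and 3 (109.4 ± 26.6, SD, n = 3). The order Zp1, Zp2, Zp3 held in 3 of 3 litters by alignments inside exons. The other ways of computing the level were not applied to Zp1. The means of Zp1 and Zp2 differ by more than either SD, while in litter 3 they stood closer, at 79.98 and 62.4. Like Zp3, Zp1 was lowest in litter 3, at 1.65-fold between its highest and lowest litter.

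The other placed genes of that list had different roles. Nobox, an oocyte homeobox transcription factor, stood at 66.7 ± 16.3 RPKM (SD, n = 3), which is within its own spread of Zp2. Furin, a proprotein convertase, stood at 19.8 ± 8.49, and Cd9, an egg membrane tetraspanin needed for fusion with sperm, at 7.94 ± 1.501. Zp4-ps, Astl (ovastacin), Izumo1r (the egg receptor Juno), Cd81, Figla, Lhx8 and Sohlh1 met no unambiguous place, which says nothing about their levels.

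All 9 oocyte marker genes, the zona genes included, were placed. Levels ranged from 38.9 RPKM for Zp3, the lowest, to 1074 ± 1327 for Dppa3, a maternal chromatin factor, whose 3 litters were 352.2, 263.5 and 2605 RPKM. Gdf9, a growth factor secreted by oocytes, stood at 550.6 ± 299.4, Bmp15, its relative, at 305.8 ± 59.2, Oosp1 at 223.9 ± 28.6, Nlrp5 at 139.9 ± 45.0 and Kit at 71.0 ± 18.4. The levels of Zp2, Nobox and Kit do not differ beyond their spread. None of the 9 cumulus and granulosa cell markers could be placed, so their part in these libraries was not measured. By mean level Zp2 ranked 9 and Zp3 10 of the 12 placed genes.

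**Figure D5:**
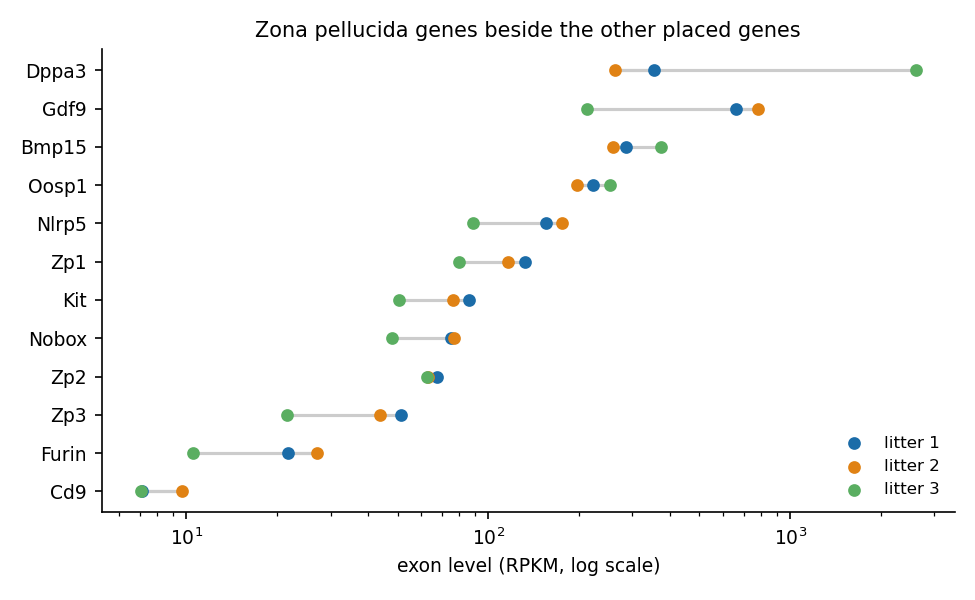
Exon level of the 12 placed genes in RPKM on a log axis, 1 point per litter, ordered by mean. Zp2 has the narrowest range and Zp3 lies below it in every litter; Zp3 and Zp1 are lowest in litter 3, while the Zp2 points lie close together.

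Likeness to Zp3 and Zp2 was taken as the SD, over the 3 litters, of the log2 ratio of a gene's level to theirs. It was smallest against Zp3 for Nlrp5, with an SD of 0.25, and Kit, with 0.27. Against Zp2 it was smallest for Oosp1, with 0.20, and Cd9, with 0.29. The SD between Zp2 and Zp3 themselves was 0.63, larger than that between Zp3 and Zp1, 0.29, or between Zp2 and Zp1, 0.33. These rest on 3 libraries and are descriptions only. Litter 3 was the lowest for 9 of the 12 placed genes, beside 40.4% of the windows that reached 10 CPM. Windows and exon levels are not in like units, and the genes come from chosen lists. Cd9, which is among the 9, was nearly equal in litters 1 and 3, at 7.11 and 7.05 RPKM. Zp1, Zp2 and Zp3 were among the 9, but the litters of Zp2 lay within counting error of their neighbours, and Zp2 was lowest in litter 3 under 6 of 9 ways of computing its level.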

How the data were processed

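RNA from ovulated oocytes was sequenced in 3 libraries, 1 per litter, which form 1 group per the labels. The deposited signal is coverage, the number of alignments over each base, not scaled to depth, per the file headers. Reads were aligned with Bowtie to mm9, per the submitters' processing notes; for the version, the placements allowed per read and the filters nothing was stated. Summed depth was a whole multiple of 72, and 99.9% of isolated blocks of depth 1 were 72 bases long, so start positions were recovered for alignments of 72 gapless bases, with 0 negative counts. Totals were 35183199, 31787887 and 32028802 alignments, which set the Poisson intervals. Strand is not part of the tracks.

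Gene models came from GENCODE M21 (GRCm38), another build than that of the tracks. Only exon lengths and spacings were used, for 1 transcript per gene (APPRIS principal, then CCDS). A gene was placed where r was at least 0.4, the next r over 1000 bases away at least 0.1 lower, at least 80% of exons of 100 bases or more covered, and the pooled count at least 100. Placement and start recovery were tested on simulated data. The simulated reads fell evenly over all exons, on a sequence shorter than a chromosome. That test therefore cannot show how coverage as uneven as that found here affects placement. Of 28 genes in the lists, 12 were placed. Named genes are Zp2, Zp3, the placed genes of the lists and, for each of Zp2 and Zp3, the 2 most alike by the SD of the log2 ratio. The members and lists were chosen with earlier results of these data known.

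RPKM, introns, exon ends, windows of 1 kb and the ratio of the genes were computed per litter, with the mean and SD; nothing says how many females a litter holds. No test between groups was possible. Alternatives covered scaling, start positions counted once, length, transcript, intron bases, the split of the transcript and leaving out each litter. Python 3.11.15, NumPy 2.4.6, SciPy 1.17.1 and numba 0.67.0 were used.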

Additional observations from a re-analysis of the deposited data

How the results depend on the processing

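Of 69 alternatives, 46 moved the value by less than the spread between litters (for window counts, by less than 1.5 times). Of the 24 that left out a litter 23 did so, and of the other 45 alternatives 23 did so. Leaving out 1 of 3 litters cannot move a mean past that spread, so those alternatives give ranges only. The ranges were 32.7 to 47.6 RPKM for Zp3, 62.8 to 65.3 for Zp2 and 0.520 to 0.728 for their ratio. For the intron to exon ratios of Zp3 and Zp2 they were 0.000248 to 0.00143 and 0.00125 to 0.00190. For the 3′ to 5′ ratios of Zp3 and Zp2 they were 8.34 to 10.6 and 1.69 to 2.62. Windows over 2-fold numbered 942 to 5193, the lowest without litter 3. Without the 100 highest windows in the total, Zp3 was at 61.9 RPKM and Zp2 at 100.2. With each start position counted once, in the gene and in the library total, Zp3 and Zp2 were at 76.7 and 97.9 RPKM. Those levels are on another scale, so their height cannot be compared with the main levels. Counted in that way, the intron to exon ratios were 0.00362 and 0.00621, and the 3′ to 5′ ratios 5.21 and 1.21. Mean depth over all exon bases gave 31.2 RPKM for Zp2 and a 3′ to 5′ ratio of 7.20 for Zp3. The union of coding transcripts gave 56.7 RPKM for Zp2. Without the last exon, chosen after seeing the data, Zp2 was at 46.2 RPKM and the 3′ to 5′ ratios of Zp3 and Zp2 at 16.3 and 1.02. Those ratios split the shortened transcript at its own midpoint. All intron bases gave an intron to exon ratio of 0.00807 for Zp2, and the median intron depth gave 0.0 for both genes. With the transcript cut into 3 equal parts, the 3′ to 5′ ratio of Zp3 was 68.4 and rests on few 5′ alignments. Litter 3 alone placed Zp3 2 bases away; litters 1 and 2 alone placed Zp2 1 base away, and depth without the log 2 bases away. Moving the models by -2 and 3 bases, to hold the most alignments, left the levels within the spread. At a mean of at least 1 CPM, 36363 windows differed over 2-fold. What else lies behind these shifts was not tested. No paired analysis was possible because only 1 group of litters was analysed. Depth limits exons with few possible starts.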
